A study of Rattus norvegicus with 2 samples.

Results

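The genes described here maintain DNA through mismatch repair, base excision repair, nucleotide excision repair and the end joining of broken DNA. They were measured in rat liver left in place 24 h after partial hepatectomy (PH), an operation that takes out part of the organ. The 2/3PH group lost the larger part and the 1/3PH group the smaller part. Each group was a pool of RNA from 3 rats read on 1 Affymetrix array, so 6 rats gave 2 arrays. Both groups had surgery, and no unoperated or sham-operated liver and no further time was analysed here. The labels give no strain, sex or age of the rats. The list held 38 genes, named by symbol under a rule that sets no limit on their values, and was drawn up with earlier results of these data known. Of these, 35 were matched to a probe set under 1 gene symbol, of 14217 genes so named on the arrays. Neil2, Neil3 and Smug1, all DNA glycosylases, were not matched and have no value.

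Mismatch repair removes bases that the replication machinery paired wrongly. Base excision repair begins when a glycosylase cuts out a damaged base, after which an endonuclease, a polymerase and a ligase restore the strand. Nucleotide excision repair cuts out a short stretch around bulky damage such as that caused by ultraviolet light, either anywhere in the genome or where a transcribing polymerase has stalled. End joining ligates broken DNA ends directly. Proliferating hepatocytes copy their genome after hepatectomy, and these routes act on errors and damage in that DNA.

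Values are MAS 5.0 signals, in which the probes of a probe set are combined and each array is scaled by a single factor. For each gene the brightest probe set gave the log2 ratio, 2/3PH minus 1/3PH, on which all comparisons rest. A gene entered the counts if its mean log2 signal over both arrays reached 6.48, a signal of 89.2, the median over the probe sets other than controls. A total of 9514 genes reached it, and 34 of the 35 matched repair genes did. Mutyh, the glycosylase that removes adenine paired with oxidised guanine, did not, at signals of 82.5 after 2/3PH against 48.4 after 1/3PH. A difference counted as a call from 2-fold upward. With 1 array per group no test was possible, and the error given is the SD of a probe set's log2 ratio, 0.31, estimated over the 2067 genes that had more than 1 probe set at this brightness. It covers error within the arrays and not the spread between rats. A ratio is a share of RNA, and in whole tissue fewer cells of a type cannot be told apart from less RNA per cell.

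None of the 34 repair genes was called in either direction. Of all genes above the floor, 6.12% passed the limit as higher and 3.68% as lower. The repair genes' log2 ratios ran from -0.48 for Xpa to 0.95 for Apex1, with a median of 0.23 and an SD of 0.42. All genes above the floor had a median of 0.035 and an SD of 0.66. Ratios were above 0 for 24 repair genes (70.6%), against 52.9% of all genes. At a limit of 1.5-fold, 8 repair genes (23.5%) were higher, against 15.8% of all genes, and none was lower, against 12% of all genes. With the mean over probe sets the share was 5 of 33 (15.2%), against 16.5% of all genes. With a floor at the 75th percentile it was 6 of 16 (37.5%), against 14.0% of all genes. It was 14 (41.2%) against 28.6% of all genes under the hybridisation controls and 16 (47.1%) against 32.1% under the poly-A controls, and with the lowest probe set above the floor 1 gene, Lig4, was 1.5-fold lower. The 8 were Msh6, Pms1, Apex1, Nthl1, Polb, Parp2, Ercc4 and Xrcc5, spread over all 4 routes, or 7 of 33 without Polb, whose probe sets differed in sign. The same 8 genes were those whose ratio exceeded 2 SDs of a probe set in either direction, and all 8 ratios were above 0. Their share of 23.5% lay close to the 25.2% of all genes, which counts higher and lower genes together.

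**Figure D1:**
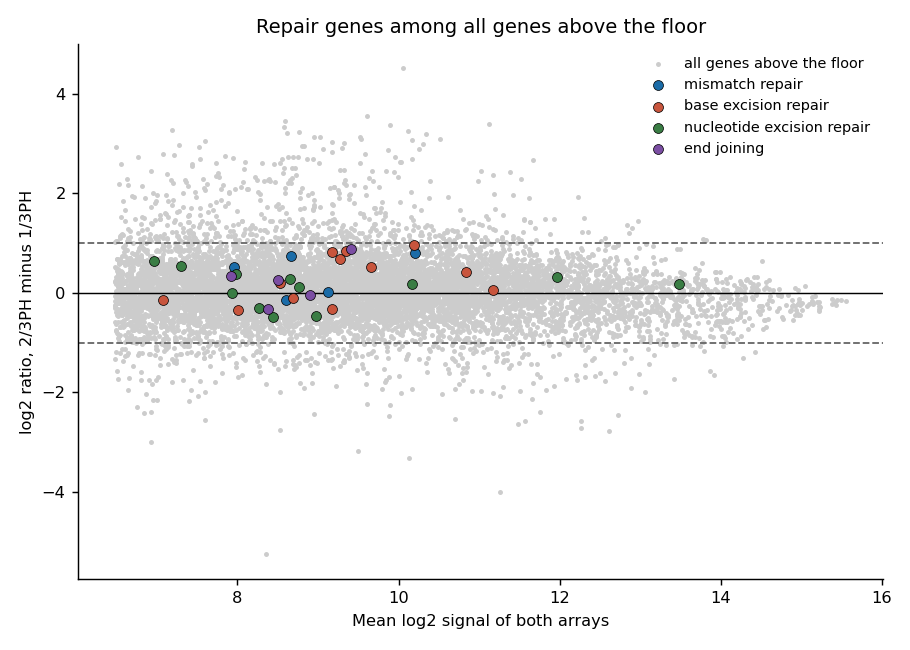
Log2 ratio (2/3PH minus 1/3PH) against the mean log2 signal of both arrays for the 9514 genes above the floor, in grey, with 34 repair genes coloured by route and dashed lines at 2-fold. The repair genes all lie between the dashed lines, from -0.48 to 0.95.

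These counts depended on the scaling of the arrays. Setting the hybridisation controls equal moved the median of all genes up by 0.26, and setting the poly-A controls equal moved it up by 0.32. Under the hybridisation controls 5 repair genes were at least 2-fold higher, Msh6, Apex1, Nthl1, Polb and Xrcc5, or 4 without Polb, beside 10.8% of all genes higher and 2.06% lower. Under the poly-A controls Pms1 joined them, which made 6, or 5 without Polb, beside 12.3% of all genes higher and 1.79% lower. Relative to the median of all genes, the repair genes' median was 0.19 higher on the deposited scale and, since these scalings only add a constant, under both controls as well. It was 0.16 higher after quantile normalization.

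**Figure D2:**
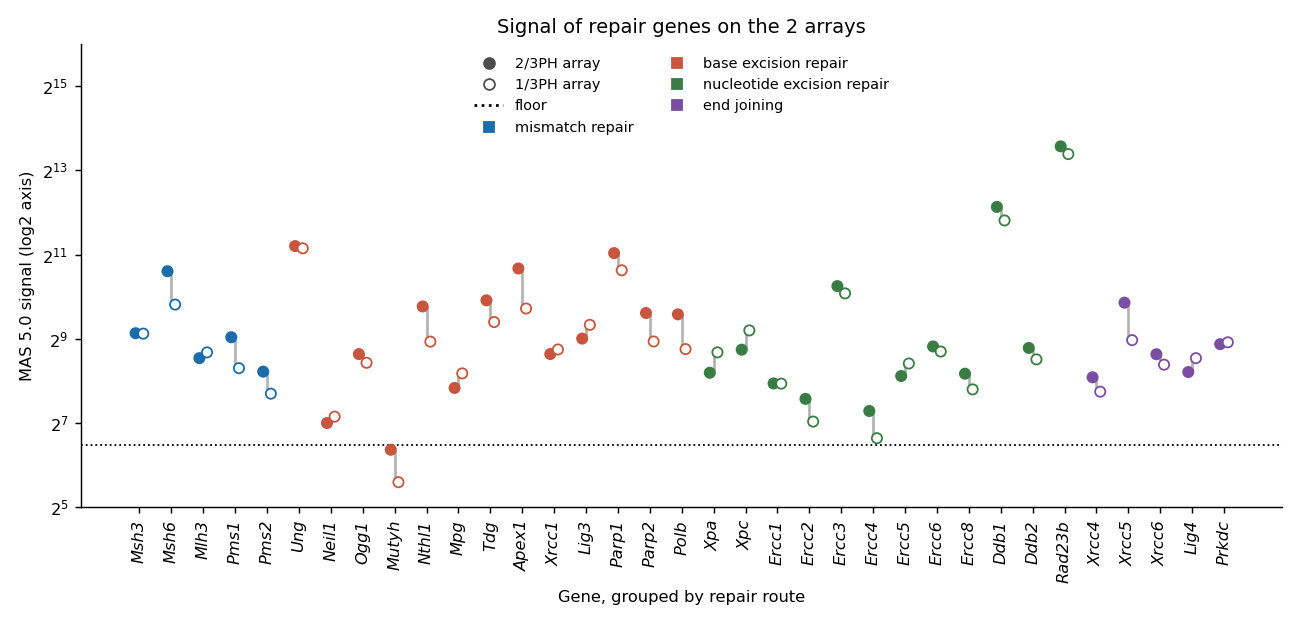
MAS 5.0 signal on a log2 axis for the 35 matched repair genes by route, with filled points for the 2/3PH array, open points for the 1/3PH array and a dotted line at the floor signal of 89.2. Mutyh lies under the floor on both arrays, and the paired points of the other genes lie less than 2-fold apart. Signals of different probe sets are not comparable with each other.

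Mismatch repair had a median of 0.52 over 5 genes, with 4 ratios above 0 and 1 below. It was the highest of the 4 routes on the deposited scale, but with the 75th percentile floor it was 0.40 over 2 genes, under base excision repair (0.60) and end joining (0.42). Msh6, a subunit of the complex that detects base mismatches and very short loops, had a signal of 1556 after 2/3PH against 900 after 1/3PH, a log2 ratio of 0.79. Msh3, its counterpart in the complex that detects larger loops, had 561 after 2/3PH against 558 after 1/3PH. The signal of Msh3 was thus nearly equal on both arrays, and its ratio of 0.0097 turned negative under median centring, quantile normalization and removal of a loess trend. The difference between these ratios was 0.78, or 1.77 SDs of a difference of 2 probe sets.

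The remaining mismatch repair genes encode MutL-type proteins, which act after the mismatch is found. Pms1 had a signal of 525 after 2/3PH against 316 after 1/3PH, a ratio of 0.73. Pms2, which carries the endonuclease that nicks the new strand, had 298 after 2/3PH against 208 after 1/3PH, a ratio of 0.52. Mlh3, best known from meiotic recombination, had 372 after 2/3PH against 410 after 1/3PH. Its ratio of -0.14 turned positive under both control scalings and in the mean over its 2 probe sets, of which 1 was under the floor. The Msh6 probe set is of the _a_at kind, which can read several transcripts, and without such sets the median of the route was 0.27 over 4 genes.

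Base excision repair had a median of 0.31 over 12 genes above the floor, with 8 ratios above 0 and 4 below. Without Polb the median was 0.21 over 11 genes. Apex1, the main endonuclease that cuts at abasic sites, had the highest ratio of all repair genes listed, 0.95, with a signal of 1629 after 2/3PH against 843 after 1/3PH. This was a 1.93-fold difference, ranked 646 of 9514. Its further probe set was under the floor, at 62.3 after 2/3PH against 43.4 after 1/3PH, and the probe set used is also of the _a_at kind.

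Polb, the polymerase that fills the gap, had a signal of 766 after 2/3PH against 432 after 1/3PH, a ratio of 0.83. Its second probe set, also above the floor, had 385 after 2/3PH against 484 after 1/3PH, a ratio of -0.33. The probe sets of Polb therefore differed in direction, by more than the SD between probe sets, and no direction is given for this gene. Parp2, which senses strand breaks, had 783 after 2/3PH against 490 after 1/3PH, a ratio of 0.68. Parp1, the more abundant protein of that kind in most cells, had 2099 after 2/3PH against 1582 after 1/3PH, a ratio of 0.41.

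The scaffold Xrcc1 and the ligase it binds, Lig3, had ratios of the opposite sign to those of the Parp genes. Xrcc1 had a signal of 399 after 2/3PH against 430 after 1/3PH, a ratio of -0.11 that turned positive under both control scalings. Lig3 had 514 after 2/3PH against 645 after 1/3PH, a ratio of -0.33, and 184 and 269 by its second probe set, a ratio of -0.55. The Lig3 ratio stayed below 0 in all 11 alternatives that gave it a value, though only at -0.0097 under poly-A scaling.

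Glycosylases start the route, and their ratios lay on both sides of 0. Nthl1, which removes oxidised pyrimidines, had a signal of 872 after 2/3PH against 489 after 1/3PH, a ratio of 0.84. Its second probe set gave 0.62, so both of its probe sets were past 1.5-fold. Tdg, which acts on thymine or uracil mispaired with guanine and in DNA demethylation, had 965 after 2/3PH against 675 after 1/3PH, a ratio of 0.52. Ogg1, which removes oxidised guanine, had 398 after 2/3PH against 345 after 1/3PH, a ratio of 0.21.

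Ung, the uracil glycosylase that follows replication forks, had a signal of 2356 after 2/3PH against 2270 after 1/3PH. Its ratio of 0.053 was within the SD between probe sets. Neil1, another glycosylase for oxidised bases, had 128 after 2/3PH against 142 after 1/3PH, a ratio of -0.15 that turned positive under both control scalings. Mpg, which removes alkylated purines, had 228 after 2/3PH against 290 after 1/3PH, a ratio of -0.34.

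Nucleotide excision repair had a median of 0.18 over 12 genes and held the 2 lowest ratios of the list. Its median was the lowest of the 4 routes on the deposited scale, but with the mean over probe sets end joining was lower, at 0.026 against 0.14. Of its genes, 9 had ratios above 0 and 3 below. Xpa, which verifies the lesion and assembles the complex, had a signal of 293 after 2/3PH against 410 after 1/3PH, a ratio of -0.48. Xpc, which finds lesions across the genome, had 428 after 2/3PH against 588 after 1/3PH, a ratio of -0.46. Both ratios stayed below 0 in every alternative that gave them a value, 10 for Xpa and 11 for Xpc. On the deposited scale both were more than 1 SD of a probe set from 0. Within 1 SD were the values under hybridisation and poly-A scaling, -0.22 and -0.17 for Xpa and -0.20 and -0.14 for Xpc.

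Rad23b, which stabilises the Xpc protein, had a signal of 12159 after 2/3PH against 10707 after 1/3PH, a ratio of 0.18. Ddb1 and Ddb2 form the complex that binds ultraviolet lesions, and Ddb1 is also part of many ubiquitin ligases. Ddb1 had 4487 after 2/3PH against 3591 after 1/3PH, a ratio of 0.32, and 0.055 by a second probe set above the floor. Ddb2, a p53 target in human cells, had 441 after 2/3PH against 365 after 1/3PH, a ratio of 0.27, and 0.015 by its second probe set.

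The helicases of the general transcription factor TFIIH open the DNA around the lesion. Ercc2 had a signal of 191 after 2/3PH against 131 after 1/3PH, a ratio of 0.54. Ercc3 had 1219 after 2/3PH against 1081 after 1/3PH, a ratio of 0.17. Both members of this pair were brighter on the 2/3PH array, by less than 1.5-fold.

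The nucleases that cut beside the lesion had ratios on both sides of 0. Ercc4, the catalytic subunit of the 5′ nuclease, had a signal of 156 after 2/3PH against 99.8 after 1/3PH, where it lay just above the floor, a ratio of 0.65. Its obligate partner Ercc1 had 246 after 2/3PH against 245 after 1/3PH, a ratio of 0.0040 that turned negative under median centring, quantile normalization and removal of a loess trend. Ercc5, the 3′ nuclease, had 278 after 2/3PH against 341 after 1/3PH, a ratio of -0.30 that turned positive under poly-A scaling. Among the factors for stalled polymerases, Ercc8 had 288 after 2/3PH against 223 after 1/3PH, a ratio of 0.37. Ercc6, of the same branch, had 452 after 2/3PH against 415 after 1/3PH, a ratio of 0.12.

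End joining had a median of 0.25 over 5 genes, with 3 ratios above 0 and 2 below. Xrcc5, the larger subunit (Ku80) of the Ku ring that clamps DNA ends, had a signal of 928 after 2/3PH against 501 after 1/3PH, a ratio of 0.89. A second Xrcc5 probe set was under the floor, at 32.5 after 2/3PH against 37.0 after 1/3PH, and the mean over both probe sets gave 0.35. Xrcc6, the smaller subunit (Ku70), had 397 after 2/3PH against 335 after 1/3PH, a ratio of 0.25. Prkdc, the kinase that Ku recruits, had 469 after 2/3PH against 483 after 1/3PH, a ratio of -0.044 that turned positive under both control scalings.

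The ligation step needs a ligase and its scaffold. Xrcc4, the scaffold of the ligase, had a signal of 272 after 2/3PH against 215 after 1/3PH, a ratio of 0.34. Its second probe set, under the floor, had a ratio of -0.29, and the mean over both gave 0.026. The ligase itself, Lig4, had 296 after 2/3PH against 372 after 1/3PH, a ratio of -0.33. A second Lig4 probe set had 217 after 2/3PH against 377 after 1/3PH, a ratio of -0.80. Both probe sets of Lig4 were dimmer on the 2/3PH array.

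**Figure D3:**
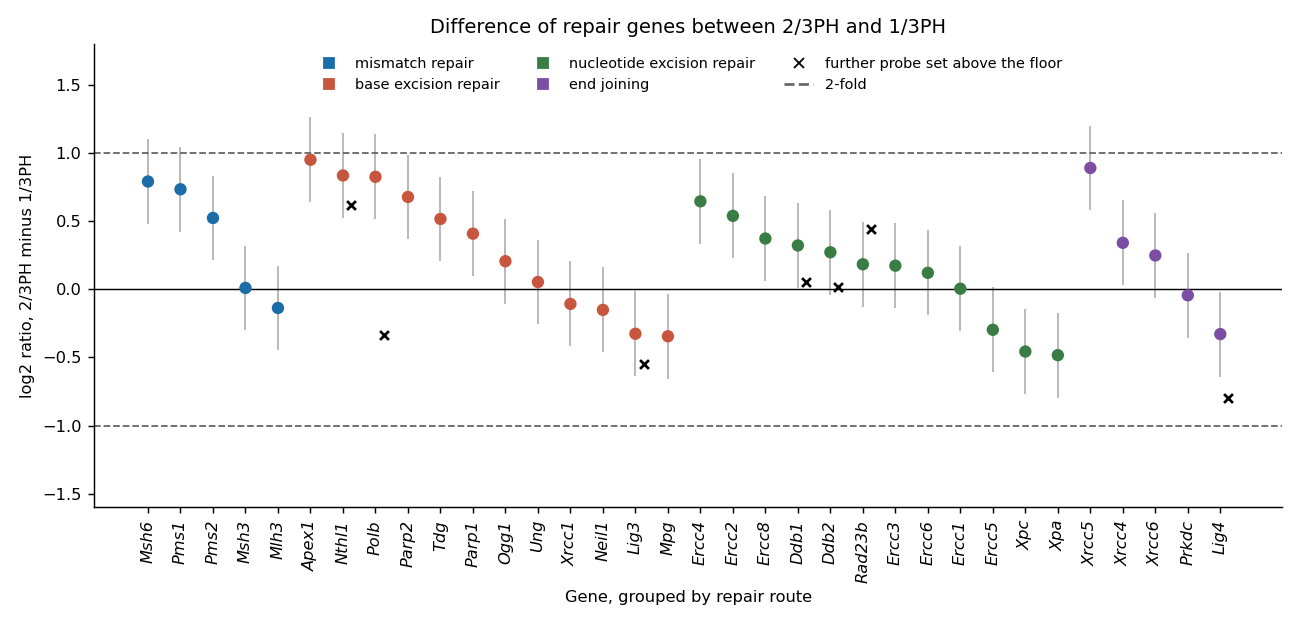
Log2 ratio (2/3PH minus 1/3PH) of the 34 repair genes above the floor, by route and in falling order, with bars of 1 SD of a probe set (0.31), crosses for further probe sets of the same gene above the floor, and dashed lines at 2-fold. Apex1, Xrcc5, Nthl1 and Polb come closest to the upper line, and the cross for Polb lies below 0.

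Protein partners were set side by side in 8 pairs to see whether members of a complex had like ratios. For 5 of the pairs the ratios differed by 0.64 to 0.78. These were Xrcc5 over Xrcc6 (0.64), Msh6 over Msh3 (0.78), Ercc4 over Ercc1 (0.64), Rad23b over Xpc (0.64) and Xrcc4 over Lig4 (0.67). The SD of a difference of 2 probe sets is 0.44, so each was between 1.45 and 1.77 SDs and none reached 2 SDs. In the pairs Ercc2 over Ercc3 (0.37), Xrcc1 over Lig3 (0.22) and Ddb1 over Ddb2 (0.050) the differences were within 1 SD.

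Promoter windows from RefSeq, 250 bases before to 50 after a transcription start on build GRCr8, were found for 30 of the 35 matched genes. They were searched on both strands for the E2F-type motifs TTTCGCGC and TTTGGCGC, which are typical of genes of the S phase, for the GC box GGGCGG and for the CCAAT box. TTTCGCGC was found in 1 of the 30 genes, Nthl1, and in 0.361% of all 27457 genes with a window. TTTGGCGC was found in none of the 30 and in 0.554% of all genes. Other forms of the E2F site were not searched, so these counts do not cover them. Shares are of genes, each counted if any of its windows holds the motif. GGGCGG was found in 23 of the genes (76.7%) and in 36.0% of all genes, and CCAAT in 15 of the 30 and in 39.6% of all genes. Among the 19005 protein-coding genes, 44.1% held GGGCGG and 0.489% TTTCGCGC. A match describes letters in a window and is not a measured binding site.

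The windows printed here are those of the genes with the highest ratios in mismatch repair (Msh6), base excision repair (Apex1) and end joining (Xrcc5), of Nthl1 for its E2F-type motif, and of Xpc, the gene with the lowest ratio that had a window. They run 5′ to 3′ in the direction of the gene, and capitals mark the motifs searched, on either strand. Msh6 lies at chr6:12333456-12333755, minus strand. Apex1 lies at chr15:26617976-26618275, plus strand. Nthl1 lies at chr10:14160084-14160383, plus strand. Xrcc5 lies at chr9:81404257-81404556, plus strand. Xpc lies at chr4:125578035-125578334, minus strand.
Msh6: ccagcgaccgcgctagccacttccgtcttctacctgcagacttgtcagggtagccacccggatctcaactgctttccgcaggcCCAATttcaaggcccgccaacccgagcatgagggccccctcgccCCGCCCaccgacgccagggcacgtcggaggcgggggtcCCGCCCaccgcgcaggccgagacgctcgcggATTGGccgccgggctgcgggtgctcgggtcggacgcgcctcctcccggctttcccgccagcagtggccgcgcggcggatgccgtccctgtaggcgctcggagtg
Apex1: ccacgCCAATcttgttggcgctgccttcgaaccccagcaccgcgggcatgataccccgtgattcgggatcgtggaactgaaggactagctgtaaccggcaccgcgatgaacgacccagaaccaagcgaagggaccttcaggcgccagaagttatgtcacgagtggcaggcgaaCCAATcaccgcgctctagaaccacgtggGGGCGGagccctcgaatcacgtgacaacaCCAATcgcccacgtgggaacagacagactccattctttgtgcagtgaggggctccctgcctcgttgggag
Nthl1: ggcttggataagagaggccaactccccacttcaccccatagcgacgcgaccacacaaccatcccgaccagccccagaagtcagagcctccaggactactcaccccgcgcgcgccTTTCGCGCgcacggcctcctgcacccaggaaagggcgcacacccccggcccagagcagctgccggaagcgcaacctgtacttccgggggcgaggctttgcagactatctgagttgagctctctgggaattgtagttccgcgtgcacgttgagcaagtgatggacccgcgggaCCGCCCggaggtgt
Xrcc5: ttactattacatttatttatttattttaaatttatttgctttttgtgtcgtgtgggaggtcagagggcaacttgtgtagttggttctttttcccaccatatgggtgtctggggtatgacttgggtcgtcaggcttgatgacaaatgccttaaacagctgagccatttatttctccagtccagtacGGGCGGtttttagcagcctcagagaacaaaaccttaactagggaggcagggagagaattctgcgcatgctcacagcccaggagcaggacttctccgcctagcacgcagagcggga
Xpc: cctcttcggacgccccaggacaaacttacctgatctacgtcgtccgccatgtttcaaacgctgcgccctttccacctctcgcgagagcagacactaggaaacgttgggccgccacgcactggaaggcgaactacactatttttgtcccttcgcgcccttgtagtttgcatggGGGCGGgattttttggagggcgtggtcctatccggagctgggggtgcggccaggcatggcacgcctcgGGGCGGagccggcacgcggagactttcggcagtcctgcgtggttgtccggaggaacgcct

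Each of these 5 windows holds at least 1 GGGCGG. Msh6 has 2 of them and 2 CCAAT boxes, and Apex1 has 1 and 3 CCAAT boxes. Nthl1 has its TTTCGCGC starting 136 bases before the start site. Xpc, with a ratio of -0.46, has 2 GGGCGG and no CCAAT box. The GC box was present in the printed windows of genes with high ratios and in that of Xpc, and in 23 of all 30 genes with a window. Xpa, which had the lowest ratio, had no window.

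Further repair genes, 51 in all, were listed from general knowledge of the 4 routes and of direct reversal and dUTP control, and 41 of them were above the floor. Among these 41 the limit was passed by 9 as higher (background 6.12%) and by none as lower (background 3.68%), and their median log2 ratio was 0.39. Most of the 9 also belong to the replication machinery. In mismatch repair 4 of 5 passed, led by Pold1, the catalytic subunit of polymerase delta, with a signal of 870 after 2/3PH against 189 after 1/3PH. The exonuclease Exo1 was 4.31-fold higher and the sliding clamp Pcna 2.71-fold higher, and Rpa1, named here after its value was seen, was 2.38-fold higher. The remaining gene, the clamp loader subunit Rfc1, also named after its value was seen, went the other way, with a signal of 586 after 2/3PH against 897 after 1/3PH, a ratio of -0.61.

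In base excision repair 3 of 9 further genes passed. The flap nuclease Fen1 was 3.94-fold higher, the replicative ligase Lig1 2.79-fold and Tdp1, which removes trapped topoisomerase from DNA ends, 2.39-fold. In nucleotide excision repair 1 of 15 passed, Rpa2, a subunit of the protein that coats single-stranded DNA, at 2.74-fold higher. The centrin Cetn2, a partner of Xpc, had a ratio of -0.68 and the ubiquitin ligase scaffold Cul4a one of -0.63. None of 9 in end joining passed, and 5 of the 9 had ratios below 0, with a median of -0.031 and a lowest value of -0.50. The largest absolute ratios there were 0.93 for Nhej1, which aids ligation, 0.92 for Rif1 and 0.74 for Rnf168. Among 4 genes of direct reversal and dUTP control, Dut, which keeps uracil out of DNA, was 2.83-fold higher, and Mgmt, which repairs alkylated guanine, had a ratio of 0.64 and Alkbh2 one of 0.41.

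**Figure D4:**
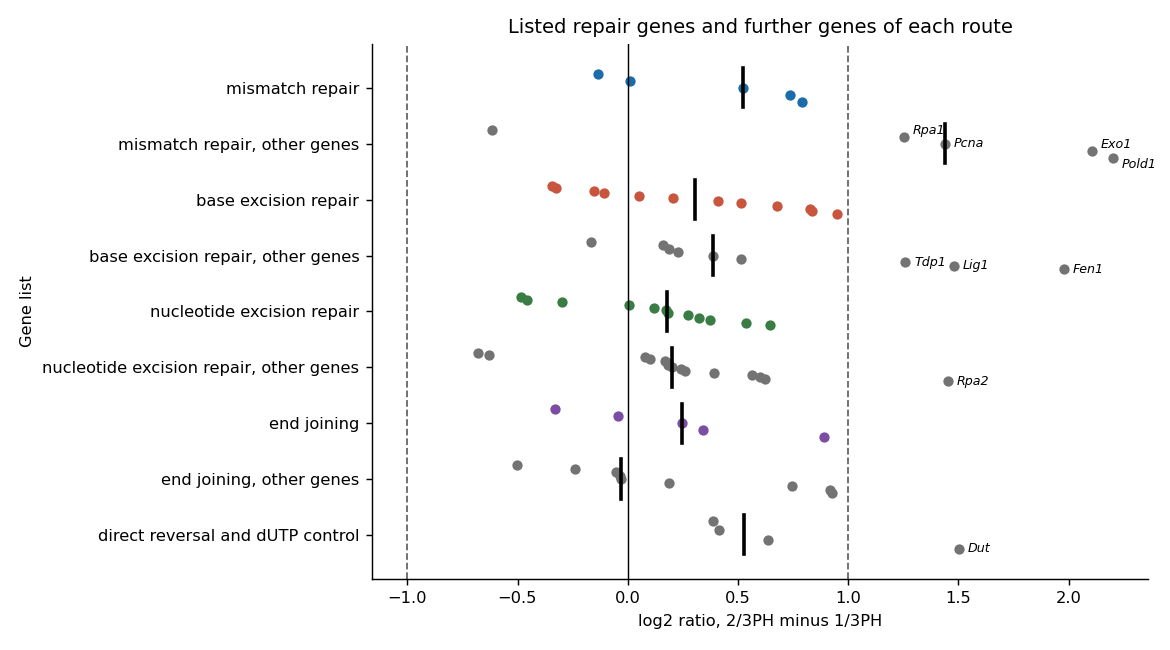
Log2 ratio (2/3PH minus 1/3PH) of the repair genes (coloured) and of the further genes of each route (grey), 1 point per gene above the floor, with a bar at each median and dashed lines at 2-fold. All coloured points lie between the dashed lines, and the named grey points lie past the upper one.

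Ligases and polymerases can be read side by side within these values. Lig1 was 2.79-fold higher on the 2/3PH array, while Lig3 and Lig4 had ratios of -0.33 each. The gap-filling polymerase Poll, named here after its value was seen, had a ratio of 0.52, against 2.20 for the replicative Pold1. Polb had 0.83 and -0.33 by its probe sets. Ung had a ratio of 0.053, whereas Dut, which lowers the supply of the uracil that Ung removes, was 2.83-fold higher. With 1 array per group none of these differences between genes was tested.

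Markers of the tissue and of cell types were read on the same arrays. Hepatocyte markers were bright on both arrays, with a lowest signal of 26282 after 2/3PH against 27263 after 1/3PH over 5 genes. All 5 had ratios below 0, from -0.23 to -0.053, and all 5 were within 1 SD of a probe set (0.31). The control scalings add 0.26 (hybridisation) and 0.32 (poly-A), more than any of these 5 ratios lies below 0. All 6 markers of cycling cells were at least 2-fold higher, against 6.12% of all genes. Their summed signal was 27773 after 2/3PH against 6971 after 1/3PH. The 7 macrophage markers measured all had ratios below 0, with a summed signal of 8548 after 2/3PH against 13593 after 1/3PH. The 6 endothelial markers also all had ratios below 0, with 6831 after 2/3PH against 10918 after 1/3PH. The control scalings also add more than Cd163 (-0.15), a macrophage marker, and Pecam1 (-0.0029), an endothelial marker, lie below 0. All 4 neutrophil and erythroid markers measured had ratios below 0, with 13511 after 2/3PH against 27124 after 1/3PH. Most of these sums came from Hbb, at 12168 after 2/3PH against 24196 after 1/3PH. The 6 stellate cell markers were split: 3 were at least 2-fold lower, against 3.68% of all genes, and 3 had ratios above 0. Those above 0 were Pdgfrb (0.43), Rgs5 (0.40) and Des (0.20). The summed signal of all 6 was 1545 after 2/3PH against 2898 after 1/3PH. Cholangiocyte markers also went both ways, with Krt19 (0.53) and Epcam (0.23) above 0, Spp1 (-0.65) below and Krt7 under the floor. Of 4 lymphocyte markers measured, 2 were under the floor, Zap70 had a ratio of 1.39 and Gzma one of -1.28. Whether the make-up of cell types differed between the pools, and whether that bears on the repair genes' ratios, was not tested.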

How the data were processed

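The series comprises 2 arrays, each hybridised with RNA pooled from 3 rats. Per the labels' protocols, the authors made biotin-labelled cRNA with a 3' IVT Express kit, read the arrays with Command Console 3.1 and computed MAS 5.0 signals in GeneSpring 11.0. The deposited values of 31099 probe sets are log2 signals: read as powers of 2, the mean without the top and bottom 2% came to 500.2 for 2/3PH and 500.3 for 1/3PH. The scaling target and detection calls are not stated in the labels.

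Probe sets were named from the platform annotation, updated through Entrez identifiers to RefSeq (GRCr8). Of those that were not controls, 20826 had 1 symbol, 436 several and 9780 none listed. All 35 members matched by symbol. The named genes are all members and, per list of further repair genes, up to 3 above the floor with the largest absolute ratio. Rpa1, Rfc1 and Poll fall outside that rule and were named after their values were seen. Members and lists were chosen with earlier results of these data known. Calculations used Python 3.11.15, pandas 2.3.3 and statsmodels 0.14.6 (loess span 0.3). Alternatives covered scaling, floor, 64 added units, the choice of probe set, and limits of 1.5-fold and 3-fold. Leaving out Polb was added after the data were seen. The number of arrays limits the precision.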

Additional observations from a re-analysis of the deposited data

How the results depend on the processing

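No paired analysis was possible because each group had 1 array. No member was 2-fold lower in any of the alternatives. None was 2-fold higher except under the control scalings, which gave 5 (hybridisation) and 6 (poly-A). At a limit of 1.5-fold in place of 2-fold, 8 members were called higher. The median of all members was 0.49 under hybridisation and 0.54 under poly-A control scaling, 0.36 with the 75th percentile floor, which left 16 members, and 0.15 with the lowest probe set above the floor. Under hybridisation and poly-A scaling the medians were 0.78 and 0.84 for mismatch repair, 0.57 and 0.62 for base excision repair, 0.44 and 0.49 for nucleotide excision repair, and 0.51 and 0.56 for end joining. The mismatch repair median was 0.27 without _s_at, _x_at and _a_at probe sets, which removed Msh6. The base excision repair median was 0.60 with the 75th percentile floor, which left 8 genes, and 0.13 with the lowest probe set. The end joining median was 0.42 with the 75th percentile floor, which left 2 genes, and 0.026 with the mean over probe sets. For the alternatives that changed the scaling, the cause of the shift was not tested. Of 34 members, 26 kept their sign in every alternative that gave them a value. Without Polb the median of all members was 0.21 over 33. The sign of Polb turned with its lowest probe set above the floor and in no other alternative. Of 353 recomputed member ratios, 40 moved by 1 SD of a probe set or more. Most of the 40 are the members under poly-A scaling, where every member moved. That scaling adds a constant of 0.317 to each ratio, just over the SD of 0.311.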
